A study of Mus musculus with 15 samples.

Results

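Dense clusters of accessible chromatin were defined by position alone. The regions of the table were sorted along each chromosome, neighbours separated by at most 12.5 kb were stitched into a unit, and units of 6 or more regions were kept. The rule gave 863 dense clusters, which held 6874 of the 43020 regions (16.0%). The remaining regions lay in 15054 units of 1 region and 7844 units of 2 to 5 regions.

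Accessible regions are stretches of DNA cleared of nucleosomes, for the most part promoters and enhancers, where transcription factors can bind. They are spread unevenly along chromosomes: promoters crowd together in gene-rich stretches, and a gene that defines a cell type often lies among several enhancers that act on it together. Stitching neighbouring regions is the opening step in methods that look for such groups of enhancers, which then rank the stitched stretches by a histone mark or cofactor. No such mark was measured here, so the clusters are described only as dense runs of accessible regions, without gene names, since the table is in build mm9 and no annotation of that build was used.

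The signal is ATAC-seq, an assay in which a transposase tags DNA that is open to it, and the 15 libraries come from cultured mouse colon cancer organoids, a line each. The organoids shared the genotype labelled AKP and C57Bl6 recipients, in whose colons they were transplanted over 3 rounds. The 9 metastasis lines were grown from liver metastases, 3 each in round 1 (Met1), round 2 (Met2) and round 3 (Met3), and the 6 primary lines from primary tumours, 3 each in round 2 (Primary2) and round 3 (Primary3). The sources do not tie a line to its parent, so a p-value here reflects the spread between lines and no more, and a lower signal in every cell cannot be told apart from a region open in fewer cells. Without gene names the labelled cell type could not be checked against marker genes.

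Library totals over regions ran from 285633 to 5916109 counts. The shallowest library was Primary3 replicate 2, in which the median dense cluster held 57 counts, the median dense region 5 counts, and 1147 dense regions 0 counts. The next shallowest was Met1 replicate 1, with a median of 144 counts per dense cluster. Sums over a cluster held more counts than single regions, but the lowest cluster sum was 0 counts in Primary3 replicate 2 and 16 to 75 in the other libraries. Signals are given in CPM, counts scaled to the depth of each library by the TMM method, and their error as the SD over 3 lines.

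The dense clusters held 6 to 31 regions, with a median of 7. There were 321 clusters of 6 regions and 175 of 7, while 141 held 10 or more, 36 held 15 or more and 9 held 20 or more. Just outside the rule were 541 units of 5 regions. Clusters spanned 15.2 to 157.5 kb, with a median of 40.1 kb. The 6011 gaps inside them had a median of 4729 bp and a smallest value of 801 bp, and the smallest gap left unstitched in the table was 12504 bp. Of 1726 cluster ends, 104 had a next region less than 1 kb beyond the stitching limit.

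**Figure D1:**
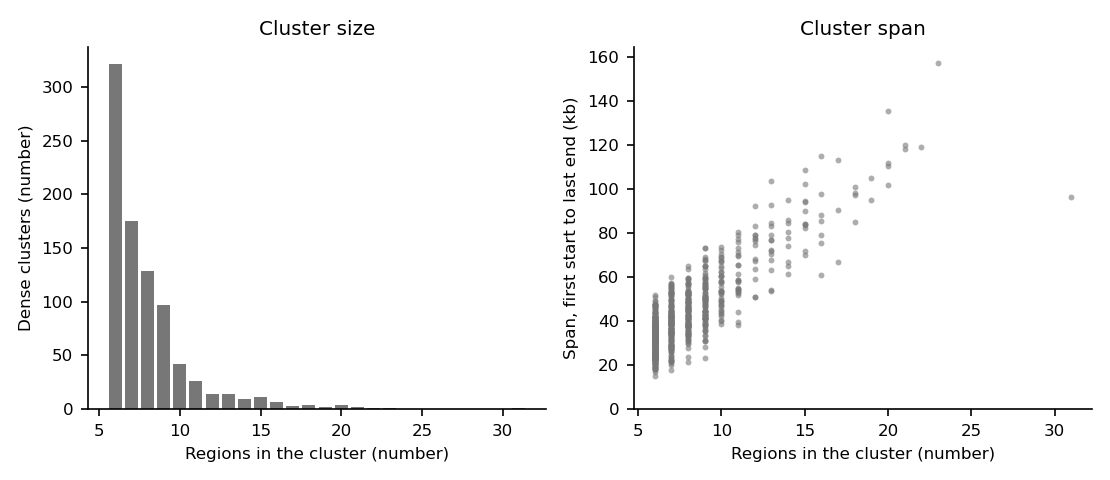
Dense clusters by number of regions (left, bars count clusters) and by span in kb against number of regions (right, each point is a cluster). Sizes ran from 6 to 31 regions and spans from 15.2 to 157.5 kb. The cluster of 31 regions stands apart, with a span of 96.2 kb.

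Regions in dense clusters were about as wide as the others but carried more signal. Their median width was 753.5 bp, against 745 bp for the 36146 regions outside. The median region had a mean signal of 19.14 CPM in dense clusters and 14.19 CPM outside. Above the upper quartile of signal over the table lay 33.0% of dense regions and 23.4% of the others. The authors' score carried with each region, whose scale is not stated, had a median of 28.2 in dense clusters and 20.6 outside. Signal was unevenly shared within a cluster: the strongest region took between 12.6% and 81.6% of the cluster's counts, with a median of 34.2%, and in 92 clusters it took more than 50%.

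Clusters were spread over all autosomes, with few on the X chromosome and none on Y. Chromosome 11 had the most, 74 clusters holding 22.9% of its regions. Chromosome 10 and chromosome 18 had 24 and 20 clusters, holding 9.52% and 9.71% of their regions. The X chromosome had 3 clusters, holding 1.74% of its regions.

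The share of a library's counts that fell in dense clusters ran from 18.5% to 22.2%. It was 19.88% ± 0.84 in Met1, 20.01% ± 1.38 in Met2, 21.35% ± 0.23 in Met3, 21.77% ± 0.34 in Primary2 and 21.37% ± 0.36 in Primary3 (SD, n = 3 each). The Met1 lines lay at 18.911%, 20.375% and 20.367%, all below the Met3 lines at 21.54%, 21.089% and 21.416%. In Met2, replicate 1 was lowest of all 15 libraries at 18.499%, while replicates 2 and 3 lay at 21.205% and 20.34%. This share is a description, without a test.

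The main question for these lines is which accessible regions differ between metastases and primary tumours, and it was asked first of each dense region in rounds 2 and 3 together. Of 6874 dense regions, 6674 (97.1%) passed the filter on low counts, against 92.9% of all regions. Among them 1333 changed (20.0%), 636 higher and 697 lower in metastasis lines (edgeR quasi-likelihood test, Benjamini-Hochberg adjusted p under 0.05 over all tested regions). Over all 39952 tested regions 20.2% were called, 11.2% higher and 8.98% lower. Lying in a dense cluster thus went with calls about as often as in the table at large.

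The balance of directions was different. In dense clusters 47.7% of called regions were higher in metastasis lines, against 55.6% of called regions in the whole table. The shares were 41.7% and 50.6% with total-count scaling, and 51.9% and 59.2% with DESeq2, which changed the side on which the dense majority lay. The size of the gap rested on single libraries: it narrowed to 49.7% against 53.8% without Met2 replicate 1, and was 42.8% against 54.1% without Met2 replicate 2. The median log2 fold change was -0.02 over dense regions and 0.041 over all regions. This difference between dense and other regions was not tested. Below the lower quartile of signal 13.1% of dense regions were called, against 16.3% of other regions there. From the lower quartile to the median the shares were 18.2% and 20.4%, from the median to the upper quartile 24.6% and 22.8%, and above it 464 of 2205 dense regions and 22.0% of the others were called.

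Whole clusters were then compared by their summed counts, in a fit over all 21949 tested units. All 863 dense clusters were tested and 259 were called (30.0%), 104 higher and 155 lower in metastasis lines. Over all units 22.1% were called, 11.7% higher and 10.4% lower. Sums hold more counts than single regions, and the called share was 18.5% for units of 1 region, 27.4% for units of 2 to 5, 30.1% for units of 5, 29.9% for units of 6 and 28.4% for units of 10 or more. The call rate of dense clusters was thus close to that of the units of 5 just outside the rule.

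The excess of lower over higher clusters rested on some libraries. Without Met3 replicate 2 the calls were 125 higher and 100 lower, and without Met1 replicate 2 or Met1 replicate 3 they were 130 higher against 125 and 126 lower. Without the shallowest libraries, Met1 replicate 1 and Primary3 replicate 2, they were 103 higher and 185 lower. The share of called clusters that were higher was 40.2%, and between 35.9% and 55.6% with 1 library left out. Over all units this share moved too, from 52.8% to 61.5% without Met3 replicate 2 and 60.6% without Met1 replicate 2 or 3. In each of these fits it was lower among dense clusters than over all units. In the main fit it was 57.5% for units of 1 region and 45.4% for units of 5 just outside the rule. Within dense clusters it was 53.1% for units of 6 and 30.0% for units of 10 or more. The lean towards lower calls was thus not particular to dense clusters, nor shared by their smallest size. Changes of whole clusters were moderate, with a median size of 0.59 on the log2 scale among those called and a smallest of 0.28. At least 2-fold changes were found in 13 higher and 26 lower clusters, and at least 4-fold changes in 2 clusters, both lower. Among dense regions, 87 higher and 87 lower changed at least 4-fold. The same cut-offs over all units and all regions are not given here, so these counts are descriptions of the dense part only.

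Each round was also compared alone. In round 2, 415 dense regions were called, 148 higher and 267 lower, where 6.21% of all regions were called, 3.44% higher and 2.77% lower. In round 3, 663 dense regions were called, 335 higher and 328 lower, where 10.2% of all regions were called, 5.64% higher and 4.52% lower. Of the clusters, 122 were called in round 2 (33 higher, 89 lower), where 7.77% of all units were called, 4.05% higher and 3.71% lower. In round 3, 135 clusters were called (68 higher, 67 lower), where 12% of all units were called, 6.31% higher and 5.66% lower. Called shares were 14.1% of dense clusters and 9.61% of units of 5 in round 2, and 15.6% and 17.9% in round 3. In round 2, 27.0% of called dense clusters and 19.2% of called units of 5 were higher. In round 3 these shares were 50.4% and 53.6%. The split of dense clusters in round 3 was 110 higher and 72 lower with DESeq2, and 56 higher and 83 lower without the 2 shallowest libraries. Over all units 57.1% and 48.3% of calls were higher in these fits.

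These counts depended on individual lines, as did those over the whole table. Leaving out Primary2 replicate 1, 2 or 3 lowered the round 2 count to 149, 181 or 189 regions and to 55, 67 or 54 clusters, and leaving out Met2 replicate 3 lowered it to 274 regions. Without each Primary2 line, 2.33%, 2.69% or 2.83% of all regions and 3.2%, 3.8% or 3.63% of all units were called. Without Met2 replicate 3, 4.26% of all regions were. In round 3, leaving out Met3 replicate 1, Primary3 replicate 1 or Primary3 replicate 3 gave 281, 218 or 295 regions and 72, 73 or 73 clusters, and leaving out Met3 replicate 2 gave 410 regions. The first 3 of these fits called 4.44%, 3.6% or 4.74% of all regions and 5.6%, 5.25% or 6.08% of all units. The last called 6.43% of all regions.

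Dense clusters mostly moved the same way in both rounds. The sign of the change was shared by 616 of 863 clusters (71.4%), against 68.6% of all tested units. Of the 122 clusters called in round 2, 120 had the same sign in round 3, and of the 135 called in round 3, 126 had the same sign in round 2. Called higher in both rounds were 22 clusters, which is 66.7% of those higher in round 2 and 32.4% of those higher in round 3. Called lower in both were 40 clusters, 44.9% and 59.7% of those lower in each round. No cluster was called in opposite directions. Calls shared by both rounds were not set against those over all units, so no excess can be read from them. The rounds share no line, although their lines may be related by descent.

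No dense cluster passed the test of the difference between the rounds (edgeR, 0% of all units called). An unadjusted edgeR p under 0.05 was reached by 84 dense clusters and 1505 of all 21949 units, and DESeq2 called 2 and 31. No dense cluster differed between Met3 and Met2 (0% of all units). There 111 dense clusters and 1739 of all units had an unadjusted edgeR p under 0.05, and DESeq2 called 5 and 38. Nor did any dense cluster differ between Primary3 and Primary2 (0% of all units). There 48 dense clusters and 1633 of all units had an unadjusted edgeR p under 0.05. DESeq2 called 4 of these dense clusters, and its count over all units is not given here. Without Met2 replicate 2, 6 dense clusters differed between Met3 and Met2 (0.173% of all units), and without Met2 replicate 3, 2 did (0.194%). When Met2 replicate 1 was left out, 1 cluster differed between the primary groups.

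**Figure D2:**
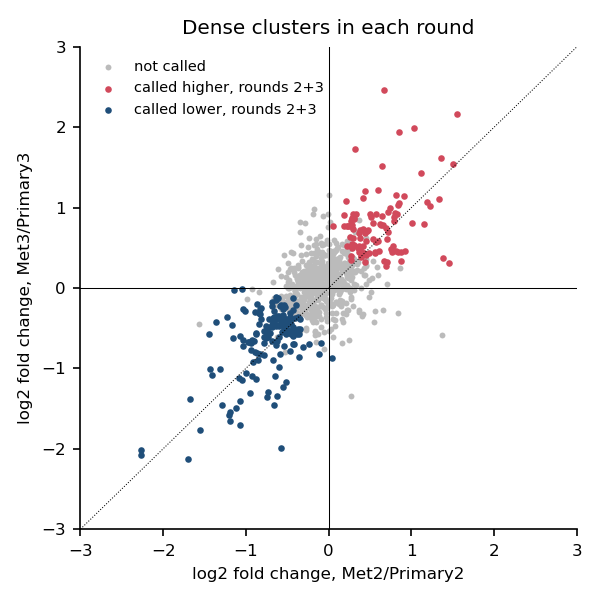
Log2 fold change of each dense cluster in round 2 (Met2 against Primary2, horizontal axis) and round 3 (Met3 against Primary3, vertical axis). Each point is a cluster, coloured by its call in rounds 2 and 3 together (104 higher in red, 155 lower in blue), and the dotted line marks equal change. The sign was shared by 616 of 863 clusters.

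Clusters are named below by their first region. The 8 decreases and 8 increases described first were the largest among called clusters in which every metastasis line lay on the same side of every primary line of its round. The largest decrease was in the peak_12377 cluster, 6 regions on chromosome 11 from 54014726 to 54038586. Its summed signal was 457, 430 and 475 CPM in the Primary2 lines and 390, 269 and 378 in Primary3. In metastasis lines it was 33.7, 126 and 121 CPM in Met2, 81.8, 90.3 and 77.0 in Met3, and 124, 57.4 and 158 in Met1. Every metastasis line, those of round 1 included, lay below every primary line, and Met2 replicate 1 was the lowest. The log2 fold change in rounds 2 and 3 together was -2.17 ± 0.25 (SE, edgeR adjusted p = 7.23e-06), and all 6 regions were called lower. These regions still changed unequally (edgeR adjusted p = 0.000983), from -4.25 to -1.65. In no other of the 259 called clusters was every tested region called with the cluster. Met3 and Met1 did not differ past the threshold here (-0.44 ± 0.35, edgeR adjusted p = 0.493).

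The second largest decrease was in the peak_52913 cluster, 8 regions on chromosome 2 from 35316518 to 35365148. The Primary2 lines had 150, 162 and 157 CPM and the Primary3 lines 127, 108 and 129, against 19.7, 37.3 and 39.4 for Met2 and 28.3, 37.2 and 24.6 for Met3. The Met1 lines had 115, 125 and 93.7 CPM, near the primary lines and well above the later metastasis lines. The log2 fold change was -2.14 ± 0.17 in rounds 2 and 3 together (edgeR adjusted p = 9.15e-08). Met3 also lay below Met1, by -1.87 ± 0.24 (edgeR adjusted p = 0.000109), and Met2 below Met1, by -1.78 ± 0.24 (edgeR adjusted p = 0.000622). Of its 8 regions 6 were called lower, and their changes did not differ from each other past the threshold (edgeR adjusted p = 0.357).

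The peak_74001 cluster held 7 regions on chromosome 5, from 77783486 to 77814422. Its signal was 145, 161 and 133 CPM in Primary2, 149, 80.7 and 158 in Primary3, 64.8, 24.4 and 47.6 in Met2, 28.9, 29.5 and 34.9 in Met3 and 106, 58.0 and 89.0 in Met1. The Met1 mean of 84.4 CPM lay between those of the primary and the later metastasis groups, while its lines overlapped with both. The change was -1.91 ± 0.21 in rounds 2 and 3 together (edgeR adjusted p = 3.4e-06) and -1.42 ± 0.31 for Met3 against Met1 (edgeR adjusted p = 0.0051). Here the regions changed unequally (edgeR adjusted p = 4.38e-06), from -0.50 in the first region to -4.00 in the last, peak_74007.

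Chromosome 18 held 2 of these 8 decreases. The peak_47252 cluster, 7 regions from 80820783 to 80854145, had 398, 355 and 434 CPM in Primary2 and 453, 252 and 441 in Primary3. It had 142, 118 and 144 CPM in Met2, 99.3, 126 and 118 in Met3 and 122, 158 and 147 in Met1, so that the 9 metastasis lines lay together, below all 6 primary lines. Its strongest region took 69.8% of its counts, and the change was -1.66 ± 0.14 (edgeR adjusted p = 1.87e-07). Within it the regions changed unequally (edgeR adjusted p = 0.00953), from -2.10 to -0.32. The peak_46381 cluster, 7 regions from 66608643 to 66638009, had 144 ± 4.84 CPM in Primary2 and 165 ± 9.89 in Primary3, against 79.4 ± 19.7 in Met1, 44.9 ± 22.3 in Met2 and 63.9 ± 23.1 in Met3. Its change was -1.52 ± 0.22 (edgeR adjusted p = 4.54e-05). Other clusters of this chromosome fell too, and with each library's chromosome medians removed the 2 changes were -1.25 and -1.11.

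The peak_100130 cluster, 10 regions on chromosome 8 from 126276758 to 126330407, also set all metastasis lines apart. It had 290, 289 and 353 CPM in Primary2 and 385, 427 and 361 in Primary3, against 159, 144 and 140 in Met2, 88.4, 98.0 and 173 in Met3 and 160, 136 and 144 in Met1. The change was -1.39 ± 0.14 (edgeR adjusted p = 1.64e-06) and -1.08 with chromosome medians removed. The regions did not change unequally past the threshold (edgeR adjusted p = 0.734), with log2 fold changes from -1.57 to -0.69 and 6 of 9 tested regions called.

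In the remaining 2 decreases, Met1 lay near the primary lines. The peak_20606 cluster, 7 regions on chromosome 12 from 80625597 to 80662247, had 82.4, 113 and 110 CPM in Met1, 75.8, 126 and 64.4 in Primary2 and 80.4, 47.1 and 110 in Primary3, but 33.7, 44.8 and 38.1 in Met2 and 18.6, 31.7 and 29.8 in Met3, below every other line. Its change was -1.42 ± 0.21 against primary lines (edgeR adjusted p = 6.9e-05) and -1.93 ± 0.30 for Met3 against Met1 (edgeR adjusted p = 0.000411). The peak_38869 cluster, 7 regions on chromosome 17 from 5553420 to 5575974, had 92.5 ± 12.1 CPM in Met1, 113 ± 32.2 in Primary2 and 132 ± 52.4 in Primary3, against 48.6 ± 18.0 in Met2 and 42.3 ± 15.8 in Met3. Its change was -1.39 ± 0.23 (edgeR adjusted p = 0.000189).

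These 8 clusters thus showed different Met1 levels. In 4 of them (peak_52913, peak_74001, peak_20606, peak_38869) Met3 was lower than Met1 past the threshold. In the other 4 (peak_12377, peak_47252, peak_46381, peak_100130) it was not, with log2 differences of -0.44 to -0.29 and edgeR adjusted p-values of 0.338 to 0.563. Both comparisons use the Met3 lines, and a difference between the 2 sets was not tested.

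Among increases with the lines so separated, the largest was in the peak_36864 cluster, 8 regions on chromosome 16 from 33738882 to 33794349. Its signal was 254, 273 and 283 CPM in Met2 and 440, 310 and 315 in Met3, against 86.9, 85.3 and 113 in Primary2 and 141, 60.6 and 140 in Primary3. Met1 had 138, 218 and 158 CPM, with a mean between those of the primary and later metastasis groups and replicate 1 just below 2 of the Primary3 lines. The change was 1.52 ± 0.17 (edgeR adjusted p = 2.53e-06), nearly the same in round 2 (1.51) and round 3 (1.54), and 5 of 7 tested regions were called higher. Met3 exceeded Met1 by 1.04 ± 0.23 (edgeR adjusted p = 0.00602).

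The peak_97704 cluster, 7 regions on chromosome 8 from 88939756 to 88983430, had 198, 203 and 213 CPM in Met2 and 312, 244 and 259 in Met3. It had 72.3, 83.0 and 84.3 CPM in Primary2, 79.0, 63.9 and 110 in Primary3 and 161, 77.8 and 112 in Met1. The change was 1.49 ± 0.16 (edgeR adjusted p = 2.31e-06). Most dense clusters of chromosome 8 had lower signal in metastasis lines, and with chromosome medians removed the change was 1.80. Within the cluster 5 of 7 regions were called higher, while peak_97707 and peak_97708, in its middle, had log2 fold changes of -0.45 ± 0.47 and 0.66 ± 0.30 and were not called.

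The peak_76834 cluster, 8 regions on chromosome 5 from 121010803 to 121040814, was the most uniform increase by number of regions, with 7 of 8 called higher. It had 482, 282 and 412 CPM in Met2 and 457, 236 and 324 in Met3, against 166, 179 and 171 in Primary2 and 161, 135 and 179 in Primary3. The Met1 lines, at 177, 161 and 146 CPM, lay among the primary lines. The change was 1.13 ± 0.16 in rounds 2 and 3 together (edgeR adjusted p = 3.37e-05), and Met2 exceeded Met1 by 1.29 ± 0.22 (edgeR adjusted p = 0.00221). Chromosome medians removed, it was 0.88.

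The peak_54512 cluster, 7 regions on chromosome 2 from 93272800 to 93303311, had 218, 287 and 314 CPM in Met2, 380, 318 and 433 in Met3, 160, 187 and 178 in Primary2, 141, 114 and 133 in Primary3 and 193, 253 and 169 in Met1. Its strongest region took 51.6% of the counts. The change was 1.08 ± 0.13 (edgeR adjusted p = 1.01e-05), 0.64 in round 2 and 1.52 in round 3. Its regions changed unequally (edgeR adjusted p = 0.00236). The other 4 increases lay on chromosome 13 (peak_22967 cluster from 9012810, 1.28 ± 0.25, and peak_23754 cluster from 34424613, 1.22 ± 0.19), chromosome 3 (peak_63117 cluster from 132821288, 1.13 ± 0.18) and chromosome 1 (peak_903 cluster from 39981771, 1.03 ± 0.16), with edgeR adjusted p-values of 9.57e-05 to 0.00103. Regions of the peak_23754 and peak_903 clusters also changed unequally (edgeR adjusted p = 0.0168 and 5.5e-05). In the peak_22967 cluster Met1 was as high as the later groups, at 84.2 ± 30.4 CPM against 92.1 ± 16.6 in Met2, 83.3 ± 33.0 in Met3, 41.6 ± 20.0 in Primary2 and 34.0 ± 12.3 in Primary3.

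**Figure D3:**
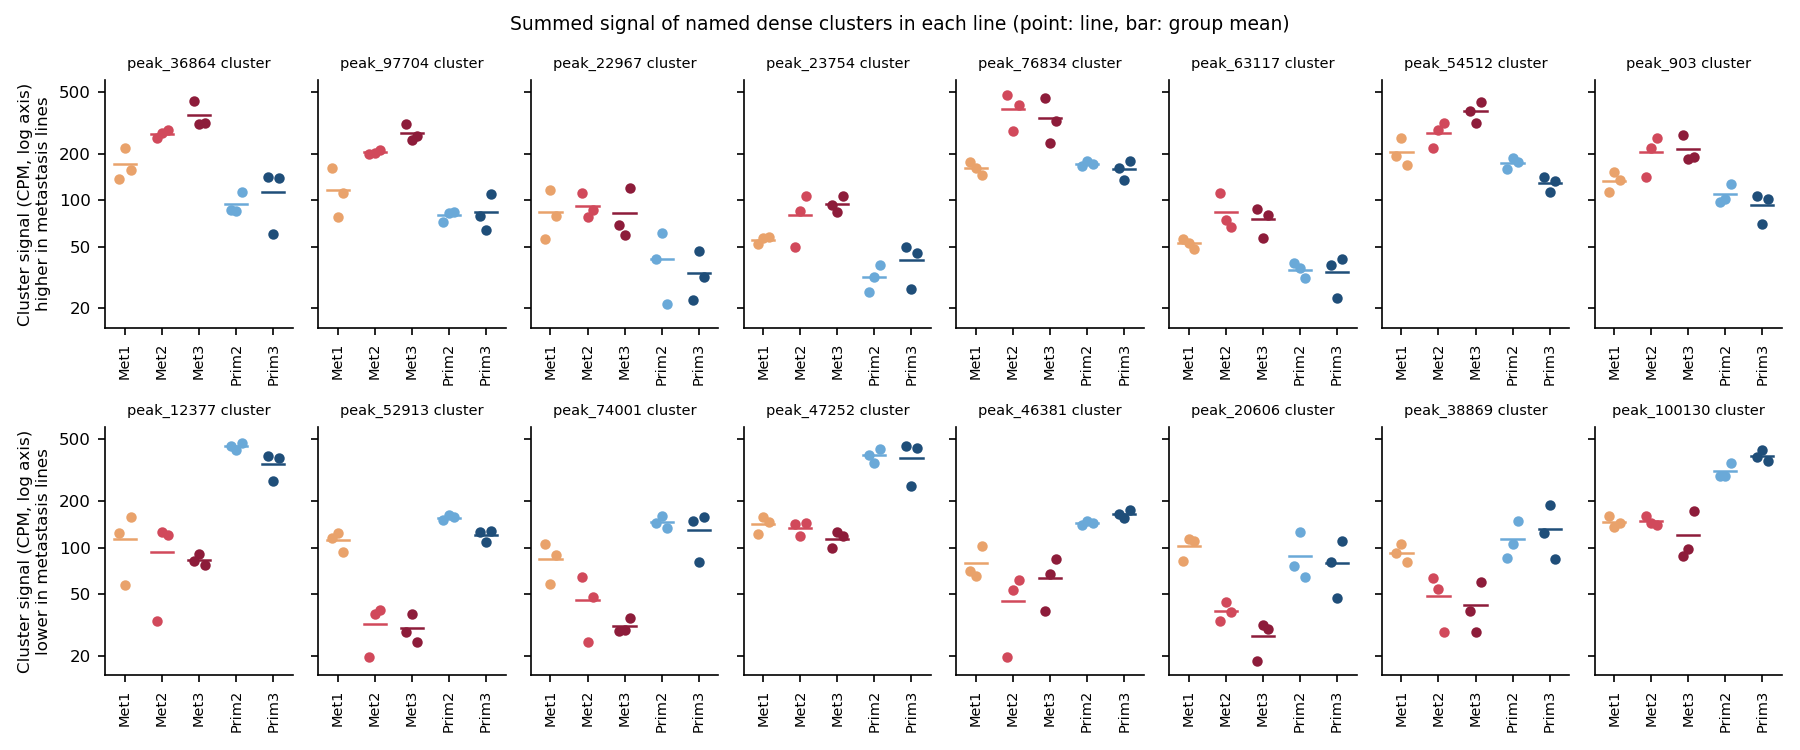
Summed signal in CPM (log axis) of the 8 increases (top) and 8 decreases (bottom) described, in metastasis lines of rounds 2 and 3. Each point is a line, bars are group means of 3 lines, and Prim2 and Prim3 stand for Primary2 and Primary3. In every panel the Met2 and Met3 points lie on the named side of their round's primary points, which the choice of clusters required, while the Met1 points lie near the primary lines in some panels (161 CPM against 172 and 158 in the peak_76834 cluster) and near the later metastasis lines in others (142 CPM against 135 and 114 in the peak_47252 cluster).

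Some clusters were called in 1 round and not in the other. For those named here and for round 3 below, the difference between rounds did not pass the threshold (edgeR adjusted p of 0.538 to 0.927). All of them were called for rounds 2 and 3 together. In round 2, the peak_23979 cluster on chromosome 13 (6 regions, from 40731213) was higher by 1.46 ± 0.34 (edgeR adjusted p = 0.0111), with Primary2 at 38.1 ± 18.5 CPM and the 4 other groups between 71.2 and 119 CPM on average. Without Primary2 replicate 1, which had 19.2 CPM, this call was lost (1.15, edgeR adjusted p = 0.0638), as it was in the fit of Met2 and Primary2 alone (1.49, edgeR adjusted p = 0.0598). The cluster's call for rounds 2 and 3 together (0.89) was lost with chromosome medians removed (0.67, edgeR adjusted p = 0.0526). The peak_80320 cluster on chromosome 6 (6 regions within 15.2 kb, from 18191592) was higher by 1.39 ± 0.25 (edgeR adjusted p = 0.00215), again with Primary2 lowest, at 73.5 ± 23.5 CPM against 121 to 193 in the other groups. Its regions changed unequally in rounds 2 and 3 together (edgeR adjusted p = 0.00322).

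In round 3, the peak_26766 cluster on chromosome 14 (6 regions, from 17560645) was higher by 2.46 ± 0.39 (edgeR adjusted p = 0.000456). Here Primary3 was the lowest group, at 18.5, 10.1 and 12.9 CPM against 73.5, 50.4 and 28.9 in Primary2. The primary groups did not differ past the threshold (edgeR adjusted p = 0.25). All 3 metastasis groups had means of 82.1 to 82.6 CPM. The peak_57503 cluster on chromosome 2 (8 regions, from 163399796) was higher by 1.99 ± 0.38 (edgeR adjusted p = 0.00224), with 293, 132 and 159 CPM in Met3 and 45.1, 33.6 and 58.4 in Primary3. Its regions changed unequally in rounds 2 and 3 together (edgeR adjusted p = 6.38e-05).

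The peak_97137 cluster on chromosome 8 (6 regions, from 77394346) rested on few lines. It had 237 CPM in Met2 replicate 3 and 288 in Met3 replicate 1, but 34.3 and 39.0 in the other Met2 lines and 106 and 116 in the other Met3 lines. Primary lines had 28.2 to 50.5 CPM, and Met1 105, 40.0 and 37.3. Its round 3 change of 2.17 ± 0.64 (edgeR adjusted p = 0.0344) lost its call without Met3 replicate 1 (1.54, edgeR adjusted p = 0.177) and with each Primary3 line left out in turn (edgeR adjusted p of 0.0527 to 0.158). For both rounds together the change was 1.86 ± 0.45, larger than the 8 increases above but without separation of the Met2 and Primary2 lines, and 1.12 without Met2 replicate 3.

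Later metastasis lines were also set against those of round 1. Met3 and Met1 differed in 694 dense regions, 497 higher and 197 lower in Met3, where 9.54% of all regions were called, 5.98% higher and 3.56% lower. By summed counts 153 clusters differed, 113 higher and 40 lower, where 10.8% of all units were called, 6.39% higher and 4.38% lower. The called share was 17.7% of dense clusters and 16.8% of units of 5 just outside the rule. In those units of 5, 79.1% of calls were higher. The median log2 fold change between Met3 and Met1 was 0.168 over dense clusters and -0.055 over all units. It was -0.12 for units of 1 region, 0.009 for units of 2 to 5, 0.157 for units of 5, 0.166 for units of 6 and 0.233 for units of 10 or more, so that larger units had higher medians. It also followed the strength of single regions, inside and outside dense clusters alike: below the lower quartile of signal the median was -0.313 over dense and -0.312 over other regions, and above the upper quartile 0.245 and 0.155.

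This tilt moved with the scaling and with a library. With total counts the cluster calls split into 83 higher and 67 lower (55.3% higher, against 73.9% with TMM), and the region calls into 365 and 282. Under that scaling the median over all regions went from -0.038 to -0.172, and the medians of dense clusters and of all units to 0.048 and -0.178. Without the 2 shallowest libraries the split was 90 higher and 52 lower, with medians of 0.119 and -0.005. The share of counts in dense clusters, given above, was likewise higher in all Met3 libraries than in all Met1 libraries. The part of this library-wide difference in the cluster calls was not tested. Leaving out Met3 replicate 1 lowered the count to 74 clusters and 336 regions, with 4.9% of all units and 4.49% of all regions called. The dense region count was 352 or 380 without Met1 replicate 2 or 3, and 391 or 449 without Met3 replicate 2 or 3. In these fits 4.94% or 4.73%, and 5.48% or 6.1%, of all regions were called.

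The increases of Met3 over Met1 described next were the 3 largest with all Met3 lines above all Met1 lines. The peak_102927 cluster, 6 regions on chromosome 9 from 60624412 to 60642929, had 361, 316 and 385 CPM in Met3 against 111, 143 and 103 in Met1, a change of 1.57 ± 0.19 (edgeR adjusted p = 0.000109). Met2 lay between, at 188, 285 and 248 CPM, and the primary groups had 133 ± 24.2 and 170 ± 16.5 CPM. The peak_27733 cluster on chromosome 14 (from 34893466) and the peak_103597 cluster on chromosome 9 (from 69873381) were higher in Met3 by 1.41 ± 0.24 and 1.40 ± 0.19 (edgeR adjusted p = 0.00107 and 0.000164). In both, the means of the primary groups lay between those of Met1 and Met3, at 146 and 165 CPM in the former and 145 and 149 in the latter, against 92.2 and 93.5 in Met1. In the former Primary3 replicate 2, a shallow library, had 67.3 CPM, below all Met1 lines.

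The decrease of Met3 below Met1 was largest in the peak_851 cluster on chromosome 1 (6 regions, 4 tested, from 39291826), with 34.9, 14.4 and 24.6 CPM in Met3 and 77.9, 178 and 82.5 in Met1 (-2.24 ± 0.48, edgeR adjusted p = 0.00535). Met2 was mixed, with 130 CPM in replicate 1 and 22.6 and 46.9 in the others. Primary lines had 19.8 to 40.3 CPM. The next were the peak_20606 and peak_52913 clusters described above.

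Met2 and Met1 differed in 244 dense regions (178 higher, 66 lower), where 3.55% of all regions were called, 2.64% higher and 0.909% lower. They differed in 44 clusters (28 higher, 16 lower), where 3.55% of all units were called, 2.46% higher and 1.09% lower. The called share was 5.1% of dense clusters and 5.18% of units of 5. These counts hung on the lines most of all: without Met2 replicate 1 they were 444 regions and 93 clusters, without Met2 replicate 3 they were 110 and 16, and without Met1 replicate 2 or 3 they were 79 or 84 regions and 20 or 17 clusters. Without Met2 replicate 1, 6.02% of all regions and 6.34% of all units were called, and without Met2 replicate 3, 1.76% and 1.78%. Without Met1 replicate 2 or 3, 1.37% or 1.16% of all regions and 1.68% or 1.05% of all units were. A fit of the Met1 and Met2 libraries alone called 8 dense regions and 0 dense clusters (0.162% of all regions, 0.00496% of all units). With total counts the cluster calls were 22 in each direction.

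The regions of a cluster did not always change together. In rounds 2 and 3 together, 242 dense clusters held no called region, 274 held called regions that were all higher, 268 held called regions that were all lower, and 79 held both. Of those 79, 15 were called as a whole and 64 were not. The same split for other units is not given here. Of the 604 clusters not called, 371 held a called region, and 9 clusters were called with no called region. In the 259 called clusters, 85.9% of 1982 tested regions shared the cluster's sign, and in 93 clusters all tested regions did. The median called cluster had 33.3% of its tested regions called with it. Regions at the edge of a cluster were called about as often as inner ones (20.9% and 19.7%).

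Whether the regions of a cluster differed from each other in their change was tested directly, with an F-test over the regions of each unit (edgeR). Unequal change was found in 428 of 863 dense clusters (49.6%), where 20.2% of all 8172 units with at least 2 tested regions were called. The called share rose with the number of tested regions, from 11.6% at 2 regions to 23.8% at 3 to 5, 45.8% at 6 to 7 and 58.9% at 8 or more. Of the 428 clusters, 163 were also called by their summed counts and 265 were not. The range of log2 fold changes within a cluster had a median of 1.64, with a median SD of 0.56.

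Adjacent regions had similar changes when they lay close together. Inside dense clusters, the log2 fold changes of adjacent regions correlated across pairs at r = 0.56 for gaps up to 1 kb (236 pairs), 0.52 for gaps of 1 to 2.5 kb (1245 pairs), 0.43 for gaps of 2.5 to 5 kb (1570 pairs) and 0.32 for longer gaps within a cluster (2635 pairs). Adjacent regions of different units correlated at 0.35 for gaps up to 25 kb, 0.27 for 25 to 50 kb and 0.29 for 50 to 100 kb. With chromosome medians removed the values inside clusters were 0.53, 0.48, 0.39 and 0.29, and those across units 0.32, 0.23 and 0.26. These are descriptions across region pairs that share libraries, and no p is given.

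The clearest case of unequal change was the peak_40230 cluster, 21 regions on chromosome 17 from 26638722 to 26758883 (edgeR adjusted p = 7.66e-19). As a whole it was lower in metastasis lines by -0.48 ± 0.11 (edgeR adjusted p = 0.00299), with 1070, 1050 and 1070 CPM in Primary2, 1160, 1060 and 1200 in Primary3, 598, 912 and 714 in Met2, 757, 882 and 890 in Met3 and 620, 674 and 804 in Met1. Of its regions 8 were called lower and 2 higher. The 2 higher ones were neighbours, peak_40242 (1.68 ± 0.41) and peak_40243 (0.94 ± 0.30), at 65.4 and 69.9 kb from the cluster start. The lower ones included a run at the far end, peak_40249 to peak_40252, with changes of -1.34, -1.80, -1.62 and -0.98. The largest change was at peak_40245 (26734131 to 26734694), which had 48.7, 51.4 and 46.0 CPM in Primary2 and 45.8, 31.9 and 38.2 in Primary3 against 2.66, 8.97 and 7.69 in Met2 and 2.43, 4.20 and 1.29 in Met3. Its change was -3.33 ± 0.42 (edgeR adjusted p = 8.62e-06). The 2 strongest regions, peak_40231 and peak_40240, changed by -0.09 ± 0.13 and -0.06 ± 0.14.

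In the peak_81908 cluster, 16 regions on chromosome 6 from 52140565 to 52226108, most called increases lay at the start of the cluster (edgeR adjusted p = 1.69e-15 for unequal change). The first 3 regions were called higher, by 0.94 ± 0.26, 2.94 ± 0.25 and 1.95 ± 0.33, and of the following 13 only peak_81917 was (0.81 ± 0.27). Of all 16 regions, 13 had a log2 fold change above 0 and 3 below, the lowest at -0.11. The region with the largest change, peak_81909, had 9.27, 9.85 and 9.68 CPM in Primary2 and 6.64, 3.19 and 11.3 in Primary3, against 39.2, 84.7 and 51.0 in Met2, 82.6, 102 and 65.4 in Met3 and 40.8, 30.1 and 31.6 in Met1. All 9 metastasis lines lay above all 6 primary lines (edgeR adjusted p = 1.33e-07 for rounds 2 and 3). The summed cluster rose by only 0.43 ± 0.11 (edgeR adjusted p = 0.00589), and with chromosome medians removed that call was lost (0.25, edgeR adjusted p = 0.0534).

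The peak_49382 cluster, 10 regions on chromosome 19 from 38089853 to 38142954, did not pass the threshold as a whole (-0.12 ± 0.12, edgeR adjusted p = 0.523) but held changes in both directions (edgeR adjusted p = 8.28e-15 for unequal change). Its last region, peak_49391 (38142108 to 38142954), rose by 3.27 ± 0.38 (edgeR adjusted p = 3.46e-06). It had 11.3, 36.8 and 44.0 CPM in Met2 and 69.2, 47.7 and 60.2 in Met3, against 5.21, 4.92 and 4.03 in Primary2 and 1.75, 6.37 and 5.33 in Primary3, with 20.4, 7.61 and 6.27 in Met1. The regions peak_49383, peak_49385 and peak_49389 fell, by 1.15, 1.09 and 0.77 on the log2 scale. The strongest region, peak_49384, changed by -0.25 ± 0.18.

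**Figure D4:**
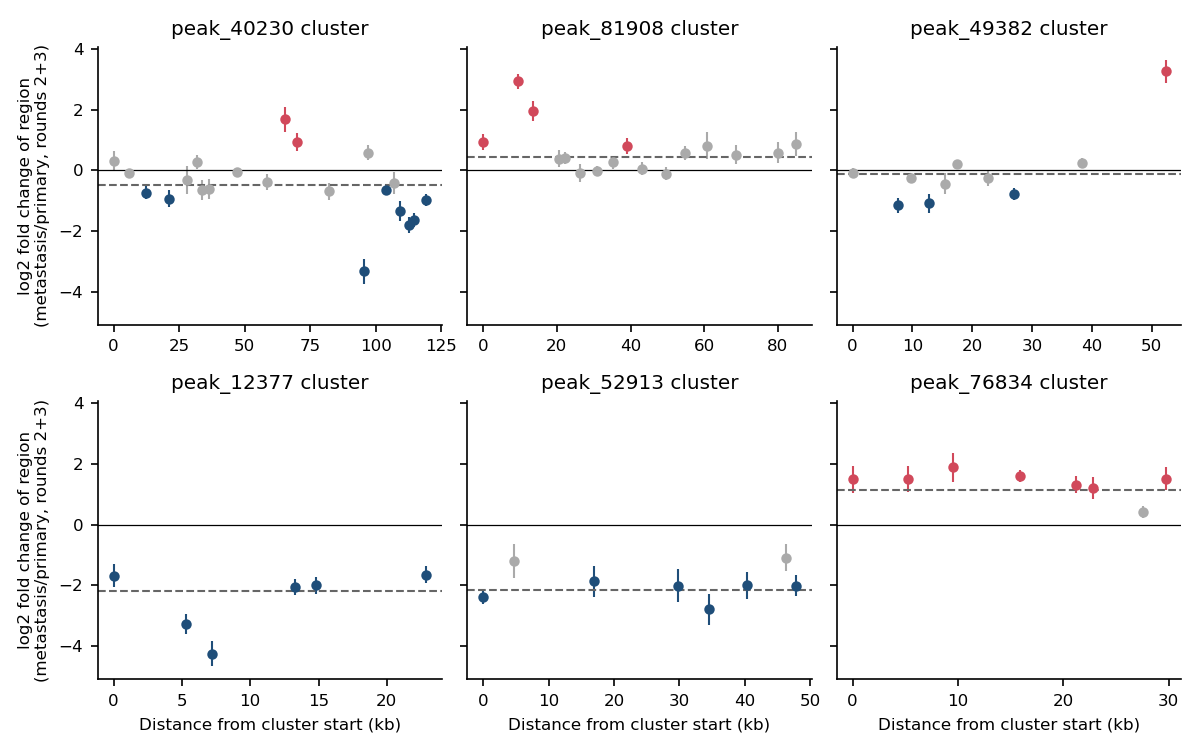
Log2 fold change of each tested region (metastasis against primary, rounds 2 and 3 together; bars are SE) by distance in kb from the start of its cluster, for the 3 clusters with the smallest p for unequal change (top) and 3 clusters that changed along their length (bottom). Red and blue points were called higher and lower, grey points were not called, and the dashed line is the change of the summed cluster. In the peak_49382 cluster the last region, at 3.27, stands far above the rest, while in the peak_52913 cluster all 8 regions lie between -2.79 and -1.09.

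Among the 5 clusters with most regions, 3 were called for rounds 2 and 3 together, each lower by less than 0.59, the median size of called changes. The peak_100070 cluster on chromosome 8 (126062423 to 126158659) held 31 regions, the most of any. It had 519, 420 and 602 CPM in Primary2, 409, 646 and 468 in Primary3, 376, 443 and 348 in Met2, 460, 414 and 466 in Met3 and 674, 317 and 368 in Met1. Its highest values were in the 2 shallowest libraries, and the groups overlapped. No region in it was called, the summed change was -0.28 ± 0.16 (edgeR adjusted p = 0.234; 0.04 with chromosome medians removed) and unequal change was not found (edgeR adjusted p = 0.955).

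The peak_13472 cluster on chromosome 11 had 23 regions over 157.5 kb, the longest span, and a change of -0.05 ± 0.09 (edgeR adjusted p = 0.739), with group means of 809 to 951 CPM. Its regions still changed unequally (edgeR adjusted p = 1.02e-08): peak_13485 rose by 0.95 and the last region, peak_13497, fell by 1.97 on the log2 scale. The peak_104783 cluster on chromosome 9 (22 regions, from 107428918) was lower by -0.39 ± 0.10 (edgeR adjusted p = 0.00937), with Met3 at 578, 529 and 530 CPM below all other lines. Its change was -0.09 ± 0.15 in round 2 (edgeR adjusted p = 0.768) and -0.69 ± 0.15 in round 3 (edgeR adjusted p = 0.00435), and Met3 lay below Met1 by -0.72 ± 0.15 (edgeR adjusted p = 0.00359). The call for both rounds was lost without Met2 replicate 2 (-0.25, edgeR adjusted p = 0.0775) or Met3 replicate 2 (-0.31, edgeR adjusted p = 0.0588). The peak_38660 cluster on chromosome 16 (21 regions, from 97801739) was lower by -0.30 ± 0.11 (edgeR adjusted p = 0.0432), a call lost under 14 alternatives. These were the fit without a filter (edgeR adjusted p = 0.0911), the replicate block (edgeR adjusted p = 0.0564) and 12 of the 15 fits with 1 library left out, among them -0.18 without Met3 replicate 2 (edgeR adjusted p = 0.273).

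Several of the single dense regions with the largest changes lay in clusters that changed much less. The region peak_60803 on chromosome 3 (84061899 to 84062364), the third of 15 in its cluster, had 33.2, 25.6 and 9.79 CPM in Met2 and 32.2, 15.6 and 25.9 in Met3, against 3.48, 7.11 and 1.61 in Primary2 and 3.85, 6.37 and 4.47 in Primary3. It rose by 2.44 ± 0.37 (edgeR adjusted p = 8.04e-05), while its cluster changed by -0.04 (edgeR adjusted p = 0.828). Met1, at 17.0, 24.1 and 23.3 CPM, was as high as the later groups. The region peak_79181 on chromosome 5 (145063916 to 145064427) had 25.2, 51.6 and 60.8 CPM in Met2 and 77.8, 60.7 and 51.8 in Met3, against 5.21, 7.11 and 7.26 in Primary2 and 9.44, 0 and 8.43 in Primary3. It rose by 2.90 ± 0.30 (edgeR adjusted p = 8.83e-07), in a cluster that rose by 0.87.

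The region peak_909, the last of the peak_903 cluster on chromosome 1 (40021016 to 40021880), had 9.71 ± 1.49 CPM in Met1, 9.70 ± 5.59 in Primary2 and 9.42 ± 5.66 in Primary3, and 50.5 ± 29.9 in Met2 and 65.3 ± 15.4 in Met3. It rose by 2.80 ± 0.34 against primary lines (edgeR adjusted p = 4.51e-06) and by 2.72 ± 0.45 from Met1 to Met3 (edgeR adjusted p = 0.000549). Further large increases were those of peak_48707 (2.58 ± 0.25), peak_57505 (2.82 ± 0.42) and peak_97141 (2.87 ± 0.52). The last lies in the peak_97137 cluster, and its highest values, 60.1 and 93.5 CPM, were in Met2 replicate 3 and Met3 replicate 1.

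Among decreases, peak_53006 on chromosome 2 (36075503 to 36076071) had 27.8, 41.0 and 82.3 CPM in Primary2 and 30.4, 19.1 and 27.9 in Primary3. All 9 metastasis lines lay at or below 9.06 CPM, with 4.87 ± 3.63 in Met1, 3.78 ± 0.982 in Met2 and 3.07 ± 0.977 in Met3. It fell by 3.37 on the log2 scale (SE 0.37, edgeR adjusted p = 1.44e-06), in a cluster that fell by 1.25. The regions peak_45518 and peak_46941, both on chromosome 18, fell by 3.55 and 3.47 (SE 0.40 and 0.45). In peak_46941, Primary2 had 37.6, 33.4 and 33.1 CPM and Primary3 26.9, 28.7 and 37.5, and the highest metastasis line had 14.0, while its cluster changed by -0.65. The region peak_82167 on chromosome 6 (54978534 to 54979667) fell by 3.42 (SE 0.44, edgeR adjusted p = 2.46e-05). There Met1 had 38.5, 51.4 and 143 CPM, near the primary lines (44.6 to 131), and Met3 3.64, 7.25 and 5.18, while Met2 replicate 1, at 38.5, lay apart from the other Met2 lines at 4.48 and 5.59.

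The directions of called clusters followed chromosomes. On chromosome 11 none of 74 clusters was called higher and 22 were called lower, and on chromosome 18 none of 20 was higher and 15 were lower, with a median log2 fold change over its clusters of -0.55. On chromosome 8 the 35 clusters had a median of -0.46, with 3 higher and 19 lower, and on chromosome 7 there were 2 higher and 12 lower. Higher clusters prevailed on chromosome 1 (13 higher, 1 lower), chromosome 5 (15 and 5), chromosome 6 (11 and 3) and chromosome 13 (11 and 3). Counts over all units of each chromosome are not given here, so these directions cannot be called particular to dense clusters.

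With each library's chromosome medians removed, these imbalances shrank or changed side. Chromosome 18 then had 1 higher and 3 lower clusters, chromosome 8 had 4 and 8, chromosome 7 had 5 and 10, and chromosome 5 had 10 and 9. The side with more clusters changed to lower on chromosome 1 (6 higher, 10 lower), chromosome 6 (5 and 8), chromosome 9 (from 12 and 5 to 7 and 9) and chromosome 13 (5 and 6), and to higher on chromosome 3 (from 4 and 7 to 6 and 5). On chromosome 11 lower clusters still prevailed, with 4 higher and 13 lower. They also did on chromosomes 4 (4 and 9), 12 (6 and 11), 15 (2 and 8), 16 (1 and 5) and 17 (1 and 7). On chromosome 10 higher clusters still prevailed (4 and 1). Over all chromosomes this left 87 clusters higher and 137 lower, of which 181 were among the 259 called before. In these counts a change in the copies of a chromosome cannot be told apart from a change in accessibility along it.

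**Figure D5:**
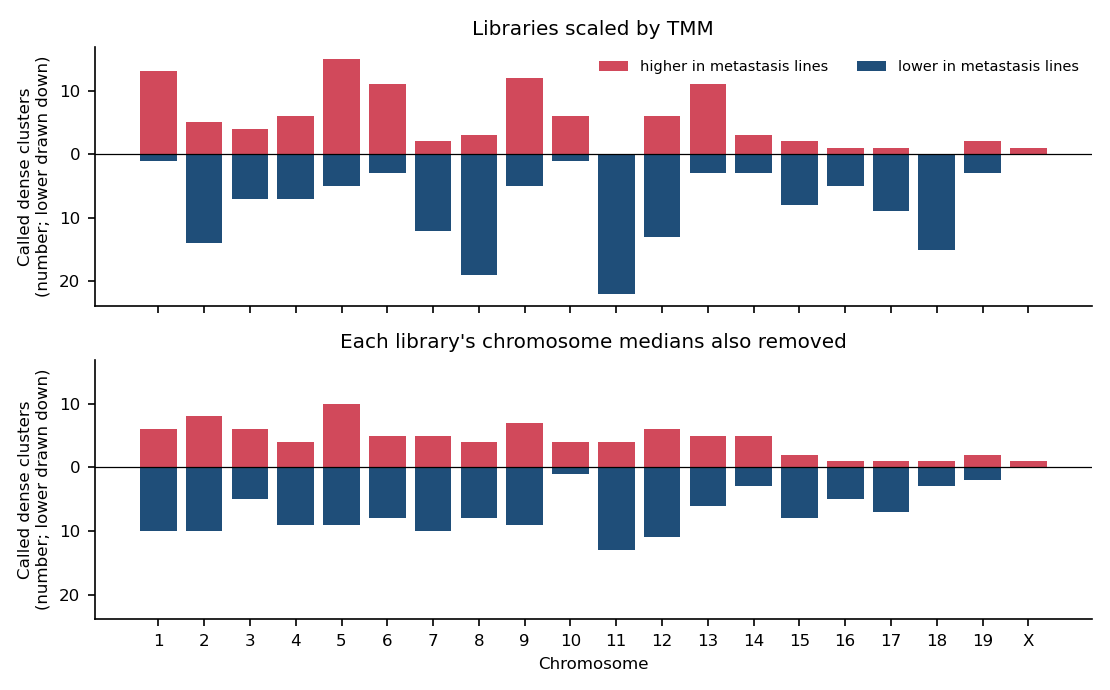
Number of dense clusters called higher (red, up) and lower (blue, down) in metastasis lines in rounds 2 and 3 together, by chromosome, with TMM scaling (top) and with each library's chromosome medians also removed (bottom). Chromosome 18 goes from 0 higher and 15 lower to 1 higher and 3 lower, while on chromosome 11 lower clusters prevail in both panels (22, then 13).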

How the data were processed

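The authors deposited raw counts, whole numbers for each region in each library. Build mm9 and the tools bedtools, Bowtie, MACS2, Picard and SAMtools are named per the submitters' processing notes, without roles or versions. Transposase shift, duplicate removal and the settings of peak calling are not given in the sources used here. Region names carry peak numbers up to 108089 for 43020 rows, so the table holds a subset of the numbered peaks, which bears on which neighbours could be stitched.

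Counts were analysed with edgeR 4.0.16 (limma 3.58.1, R 4.3.3): filterByExpr (minimum count 10, minimum total 15), TMM, robust quasi-likelihood fits of 5 group means over all 15 libraries, per region and per stitched unit (summed counts of its regions), and diffSpliceDGE for unequal change within units. Benjamini-Hochberg adjustment covered all tested regions or units, at 0.05. SE is the log2 fold change divided by the root of F. The scripts were tested on simulated counts. Summaries used Python 3.11.15, numpy 2.4.6 and pandas 2.3.3.

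Named clusters were the 5 with most regions, the 8 with the largest change in each direction among those called with all lines of a round separated, 3 per direction in round 2, round 3 and Met3 against Met1, and the 3 with the smallest p for unequal change. Named regions were the 8 per direction with the largest change and at least median signal, separated likewise, and the largest in each named cluster; others named within a cluster were chosen after their values were seen. Clusters, lists and rules were chosen with earlier results of these data known. Alternatives were DESeq2 1.42.0, total-count scaling, no filter and a stricter filter (5 CPM in 3 libraries), the compared groups alone, a block for replicate number, chromosome medians removed, other stitching limits (5 and 25 kb, 5 or 8 regions), each library left out and, added after seeing the data, both shallowest libraries left out.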

Additional observations from a re-analysis of the deposited data

How the results depend on the processing

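Counts of dense clusters and regions followed the stitching rule, since it sets how many there are. For rounds 2 and 3 together, a limit of 5 kb gave 97 called regions, 15 called clusters and 37 with unequal change, and a limit of 25 kb gave 3322, 574 and 1020. A minimum of 8 regions gave 703, 109 and 209, and a minimum of 5 regions gave 422 called clusters. The numbers tested and the shares over all units under these rules are not given here, so these counts cannot be read as call rates. Fits of the compared groups alone called 228 regions and 73 clusters in round 2, 1058 and 226 in round 3, 8 and 0 for Met2 against Met1, and 4 clusters for Primary3 against Primary2. Over all regions and units these fits called 3.93% and 5.08% in round 2, and 16.7% and 18.5% in round 3. For Met2 against Met1 the shares were 0.162% and 0.00496%. The cause of these shifts was not tested. DESeq2 called 68 clusters for Met2 against Met1, 2 for the difference between rounds, 5 for Met3 against Met2 and 4 for Primary3 against Primary2. For the first 3 of these it called 5.61%, 0.141% and 0.173% of all units.

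With 1 library left out, called regions ran from 960 to 1492 in rounds 2 and 3 together, 149 to 498 in round 2, 218 to 921 in round 3, 336 to 963 for Met3 against Met1 and 79 to 444 for Met2 against Met1. Called clusters ran from 199 to 286, 54 to 151, 72 to 176, 74 to 210 and 16 to 93 in the same order. Shares over all regions were, in order, 14.5% to 21.8%, 2.33% to 7.29%, 3.6% to 13.2%, 4.49% to 12.8% and 1.16% to 6.02%. Those over all units were 16.4% to 23.8%, 3.2% to 9.02%, 5.25% to 14.7%, 4.9% to 13.9% and 1.05% to 6.34%. Called clusters ran from 0 to 6 for Met3 against Met2 and 0 to 1 for Primary3 against Primary2, stayed at 0 for the difference between rounds, and ran from 296 to 491 for unequal change. Removing chromosome medians raised the count for unequal change from 428 to 640 clusters. That step shifts all regions of a chromosome alike within a library, so it should not alter differences between regions of a cluster. The rise is therefore not read as a result on these clusters, and its cause was not tested.

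With a replicate block the counts for rounds 2 and 3 together were 1205 regions, 257 clusters and 367 with unequal change, and no count of calls moved by over 1.5 times. The numbers did not pair lines: deviations of same-numbered lines correlated between -0.3 and 0.41 (median -0.03, 6 of 30 pairs over 0.1), and 5 of 15 lines correlated best with their own number. Of 2092 alternative values for named clusters and regions, 2028 kept their direction and side of the threshold, 47 lost a call, 11 gained a call and 6 changed direction, none of which was called. The 6 were the peak_100070 cluster at 0.04 and the peak_13472 cluster at 0.11 with chromosome medians removed, the peak_13472 cluster at 0.02, 0.01 and 0.00 without Met1 replicate 2, Met1 replicate 3 and Met3 replicate 2, and the peak_851 cluster, 0.40 for rounds 2 and 3 together, at -0.08 without Met2 replicate 1. With 1 library left out the peak_851 cluster ran from -0.08 to 0.68 and the peak_13472 cluster from -0.08 to 0.02. Among called values that moved by over 1.5 times and are not in the report, the peak_103597 cluster went from 0.42 to 0.27 with chromosome medians removed, where its call for rounds 2 and 3 was lost (8 alternatives in all), peak_36871 moved from 2.83 to 4.66 without Primary2 replicate 3 and peak_97710 from 2.53 to 1.56 without Met2 replicate 3. Depth limits Primary3 replicate 2 most, where a dense region's median count was 5.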
